A study of Homo sapiens with 6 samples.

Results

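PODXL encodes podocalyxin, a heavily glycosylated sialomucin of the cell surface, and the genes described with it are PODXL2 (endoglycan, its close relative), SLC9A3R1 and SLC9A3R2 (the scaffolds NHERF1 and NHERF2), and EZR, RDX and MSN (ezrin, radixin and moesin, the ERM proteins). These are 7 of the 58884 genes in the deposited count table, and all 7 passed the filter on low counts. PODXL was chosen by its result in these data, since it had the smallest p among the genes that rose after CIRBP knockdown in NC_2, NC_3, SiCIRBP_1 and SiCIRBP_3. Its difference over those 4 libraries is therefore given as a description with no test. The other 6 genes were chosen for their known relation to podocalyxin, with earlier results of these data known.

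The cells were a human immortalized ventricular cardiomyocyte line, which the labels call T0519 and the study's text, for this experiment, AC16. CIRBP is a cold-inducible RNA-binding protein, and the study sequenced RNA from cells given negative control siRNA (NC, 3 libraries) or siRNA against CIRBP (SiCIRBP, 3 libraries) to look for genes that respond to its loss. All were grown in Prigrow I medium with serum and antibiotics, at 37 °C in 5% CO2, and no drug is named for them. The sources do not say that the libraries came from separate cultures, so p-values measure the spread between these libraries, which may be technical.

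Podocalyxin carries a long mucin-like extracellular domain covered with sialylated O-glycans, whose negative charge keeps neighbouring membranes apart. It is best known from kidney podocytes, endothelial cells and the apical surface of epithelial cysts. The last residues of its cytoplasmic tail bind the PDZ domains of the NHERF scaffolds, which in turn hold ezrin, and ezrin ties the complex to cortical actin. ERM proteins fold shut on themselves until phosphorylation opens them, so RNA levels do not report their activity.

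The coding ends of PODXL and PODXL2 are shown because they encode this tail, the part of each protein that NHERF binds. They are the last 60 coding bases before the stop codon, 5′ to 3′ on the coding strand, from GRCh38 with the GENCODE 29 annotation, and the capitals mark the last 4 codons.
PODXL, chr7:131504314-131504373, minus strand: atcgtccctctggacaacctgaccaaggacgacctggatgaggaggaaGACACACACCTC
PODXL2, chr3:127672418-127672477, plus strand: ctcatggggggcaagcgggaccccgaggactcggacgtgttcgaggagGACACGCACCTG
In both genes the stretch lies in a single exon. The capitals were identical at 10 of 12 positions (83.3%), against 27 of 60 (45.0%) over the whole stretch and 61.1% over the aligned coding sequences. The stretch was compared position by position and the coding sequences after an alignment that allows gaps, so 45.0% and 61.1% are not like measures. The siRNA was directed at neither gene.

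The libraries held between 25726259 and 29919566 estimated reads each. CIRBP, the siRNA target, stood at 86.4, 85.8 and 91.0 CPM (normalised counts, the reads of a gene relative to the library total after TMM scaling) in NC_1 to NC_3 and at 54.8, 24.3 and 46.3 in SiCIRBP_1 to SiCIRBP_3, so it was lower in every SiCIRBP library. SiCIRBP_2 stood apart, with correlations of 0.960 to 0.975 with the other libraries, against 0.981 to 0.997 among those. The 13 interferon-stimulated genes of a fixed list were all above the NC mean there, by a median of 3.75 on the log2 scale, and the corresponding medians were -0.91 in SiCIRBP_1 and 1.07 in SiCIRBP_3. The study left NC_1 and SiCIRBP_2 out of its own test, and the same 4 remaining libraries gave the main values here. Of 10 cardiomyocyte markers, 2 (ACTN2 and TNNI3) reached 1 TPM (the deposited transcript abundance, which corrects for length) in any library. The contractile genes MYH6 and MYL2 and the calcium channel gene RYR2 were at 0 in all 6 libraries, and TNNT2 was at 0 in 5 of 6. Most defining markers of the labelled cell type were thus at or near 0, though ACTN2 stood at 7.86 to 15.9 TPM. The fibroblast collagen gene COL1A1 reached 320 to 1158 TPM.

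PODXL was at 34.9, 39.6 and 35.1 CPM in NC_1, NC_2 and NC_3 and at 165.7, 61.2 and 199.2 CPM in SiCIRBP_1, SiCIRBP_2 and SiCIRBP_3. All 3 SiCIRBP libraries lay above all 3 NC libraries, but SiCIRBP_2 lay much nearer to the NC libraries than to the other SiCIRBP libraries. The raw estimated counts behind these values were 997 to 1071 in the NC libraries and 4839, 1574 and 5591 in the SiCIRBP libraries, so counting error was small beside the differences. Over the 4 libraries that chose it, PODXL stood at 37.4 ± 3.17 CPM in NC and 182.4 ± 23.7 CPM in SiCIRBP (SD, n = 2 each), a fitted log2 difference of 2.29 (SE 0.12) or 4.89-fold. The rise with the next smallest p, ZDHHC16, which encodes a palmitoyltransferase of the endoplasmic reticulum, had a log2 difference of 1.53 (SE 0.09). In TPM, which also carries the transcript length assigned in each library, the ratio of the means over the same 4 libraries was 4.24.

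The only libraries that played no part in choosing PODXL were NC_1 and SiCIRBP_2. Between these, PODXL was 1.75-fold higher in SiCIRBP_2, a log2 difference of 0.79 on the log2(CPM + 1) scale, from 1 library a group and hence with no test. In TPM the same libraries were at 9.49 and 13.2, a log2 difference of 0.43 on the log2(TPM + 1) scale. Its level in SiCIRBP_2 was 1.67 times the mean of the 3 NC libraries, of which NC_2 and NC_3 were used in the choice. With all 6 libraries in the fit the log2 difference was 1.96 (SE 0.38), and without SiCIRBP_2 it was 2.32 (SE 0.11). The knockdown was deepest in SiCIRBP_2 by CIRBP CPM, and PODXL was lowest there among the SiCIRBP libraries. SiCIRBP_2 was also the library that stood apart, and whether PODXL varied with the depth of knockdown was not tested. These are bulk samples, so more cells with PODXL RNA and more PODXL RNA per cell cannot be told apart.

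Markers of other cells known for podocalyxin were low. Among 6 podocyte markers, 1 (SYNPO, an actin-binding protein of many cell types) reached 1 TPM, and NPHS1, which encodes the slit diaphragm protein nephrin, was at 0 in every library. Of 7 endothelial markers, 2 (TEK and KDR, receptors for angiopoietins and VEGF) reached 1 TPM, while CDH5 and PECAM1, the junctional adhesion genes that define the type, were at most 0.09 and 0.12 TPM. The summed endothelial list ran from 13.1 to 16.4 TPM in NC and from 9.98 to 16.1 TPM in SiCIRBP. Of 4 pluripotency markers, 1 (POU5F1) reached 1 TPM, with the list summing to at most 2.38 TPM. Of 6 fibroblast markers 5 reached 1 TPM and LUM was at 0, and the list summed to 712 to 828 TPM in NC and 418 to 1306 TPM in SiCIRBP. COL1A1, which made up most of that sum, was at 743, 320 and 1158 TPM in SiCIRBP_1 to SiCIRBP_3, the same order as PODXL. In the NC libraries it was at 584 to 704 TPM. COL3A1 also had that order in SiCIRBP_1 to SiCIRBP_3, at 20.55, 13.39 and 32.19 TPM. It was not shared by COL1A2 (28.69, 51.66 and 59.94 TPM), PDGFRA (59.86, 32.25 and 54.59 TPM) or DCN (1.42, 1.34 and 1.12 TPM). Any part of these markers in the PODXL values was not tested.

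**Figure D1:**
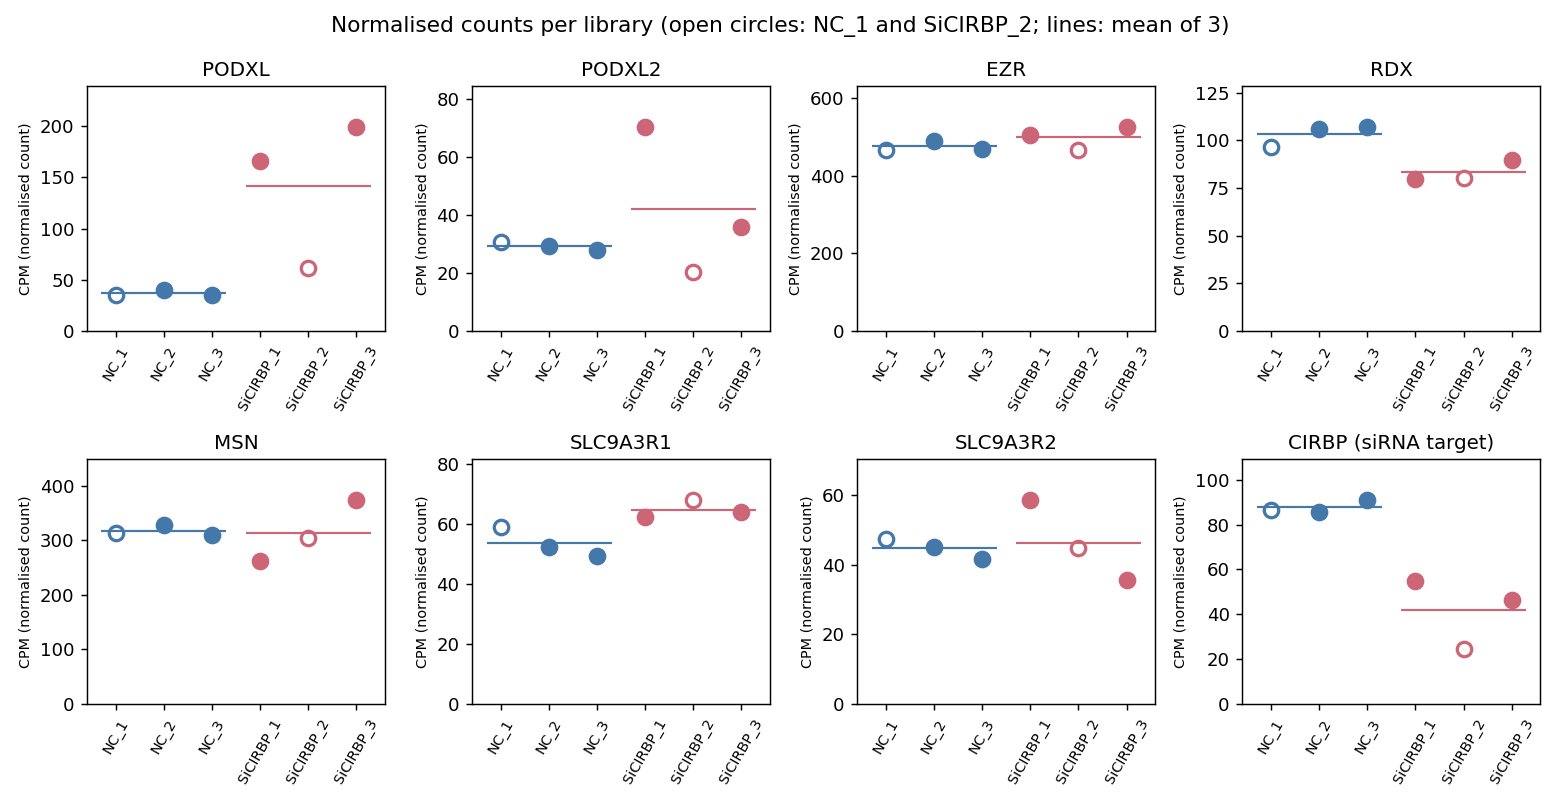
Normalised counts in CPM (vertical axes, each from 0) in each library for the 7 genes and for CIRBP, the siRNA target; blue points are NC, red points SiCIRBP, open circles NC_1 and SiCIRBP_2, and lines the mean of 3 libraries. PODXL lies between 34.9 and 39.6 in NC and between 61.2 and 199.2 in SiCIRBP, while EZR and MSN overlap between the groups.

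PODXL2 was at 30.6, 29.3 and 27.8 CPM in the NC libraries and at 70.4, 20.2 and 35.9 CPM in SiCIRBP_1, SiCIRBP_2 and SiCIRBP_3. The NC libraries lay close together, whereas the SiCIRBP libraries spanned 3.49-fold and lay on both sides of them. Over the 4 libraries the log2 difference was 0.90 (SE 0.28), which did not pass the test (edgeR quasi-likelihood, adjusted p = 0.0687 over all tested genes). Over all 6 libraries it was 0.53 (SE 0.38, adjusted p = 0.413), and without SiCIRBP_1 that difference was -0.05. In SiCIRBP_2, PODXL2 was lower than in NC_1 by a log2 of -0.58, where PODXL was higher, so the relatives were on opposite sides in that pair. Whether their differences between the groups differ was not tested.

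The NHERF scaffolds, each with a pair of PDZ domains and a tail that binds ERM proteins, differed less. SLC9A3R1 was at 59.1, 52.4 and 49.5 CPM in NC_1 to NC_3 and at 62.3, 68.1 and 64.0 CPM in SiCIRBP_1 to SiCIRBP_3. In CPM the groups did not overlap, though NC_1 came within a few CPM of SiCIRBP_1. In TPM they did overlap, with NC_1 at 44.35 and SiCIRBP_2 at 44.16. The log2 difference was 0.31 (SE 0.09, edgeR adjusted p = 0.0540), just outside the threshold of 0.05, and 0.27 (SE 0.12, adjusted p = 0.211) over all 6 libraries. It passed when only genes with at least 10 counts in every library were kept (adjusted p = 0.0459), and over all alternatives run, those over 6 libraries included, the adjusted p ran from 0.00204 to 0.568. SLC9A3R2 was at 47.3, 45.2 and 41.8 CPM in NC and at 58.6, 44.9 and 35.6 CPM in SiCIRBP. SiCIRBP_1 lay above every NC library and SiCIRBP_3 below every one, and the log2 difference of 0.12 (SE 0.22, adjusted p = 0.738) became -0.30 without SiCIRBP_1 and 0.43 without SiCIRBP_3.

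Among the ERM genes, whose proteins link membrane proteins to actin filaments, RDX alone passed the test. It stood at 96.3, 106.2 and 106.9 CPM in NC_1 to NC_3 and at 79.6, 80.4 and 89.7 CPM in SiCIRBP_1 to SiCIRBP_3. Every SiCIRBP library was below every NC library, including the libraries left out of the main fit. In TPM it was at 41.0, 51.4 and 51.5 in NC and at 34.9, 24.3 and 36.2 in SiCIRBP, lowest in SiCIRBP_2. The log2 difference over 4 libraries was -0.33 (SE 0.09, edgeR adjusted p = 0.0489), or 0.795-fold. The call was lost over all 6 libraries (-0.31, SE 0.11, adjusted p = 0.162) and when NC_2 or NC_3 was left out (adjusted p = 0.288 and 0.346). Over all alternatives run on it, those over 6 libraries included, the adjusted p ran from 9.81e-06 to 0.484.

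EZR, the ERM gene with the highest TPM here, was at 466.9, 489.0 and 469.0 CPM in NC and at 505.7, 466.4 and 524.7 CPM in SiCIRBP. SiCIRBP_1 and SiCIRBP_3 were above every NC library and SiCIRBP_2 was level with NC_1. Its log2 difference was 0.11 (SE 0.07, adjusted p = 0.345) over 4 libraries and 0.07 (SE 0.10, adjusted p = 0.693) over 6. MSN was at 313.5, 328.6 and 310.0 CPM in NC and at 262.7, 304.0 and 373.3 CPM in SiCIRBP, so the NC libraries lay within the range of the SiCIRBP libraries. Its log2 difference was -0.01 (SE 0.16, adjusted p = 0.983), and 0.22 without SiCIRBP_1 or -0.29 without SiCIRBP_3.

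Over the 4 libraries, 0 of the 6 partner genes were called higher and 1, RDX, was called lower at an adjusted p under 0.05, where 9.62% of the 15421 tested genes were called higher and 9.76% lower. PODXL, chosen from this comparison, was also among the 1.82% called higher by at least 2-fold, and nothing is read from that. Over all 6 libraries edgeR called none of the 6 partner genes, with 0% of 15217 tested genes called, 3603 of them at an unadjusted p under 0.05, and the smallest adjusted p at 0.0853. DESeq2 on the same 6 libraries called 747 genes higher and 775 lower, with RDX outside at an adjusted p of 0.108. Of the 6 partner genes, compared in CPM, SLC9A3R1 had all its SiCIRBP values above all its NC values, as did 16.2% of all tested genes. RDX had all its SiCIRBP values below all its NC values, as did 16.6% of all tested genes, and the other 4 partner genes overlapped. PODXL had no overlap either, but it was chosen by its rise over 4 of these 6 libraries. It is therefore not set against the 16.2%.

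**Figure D2:**
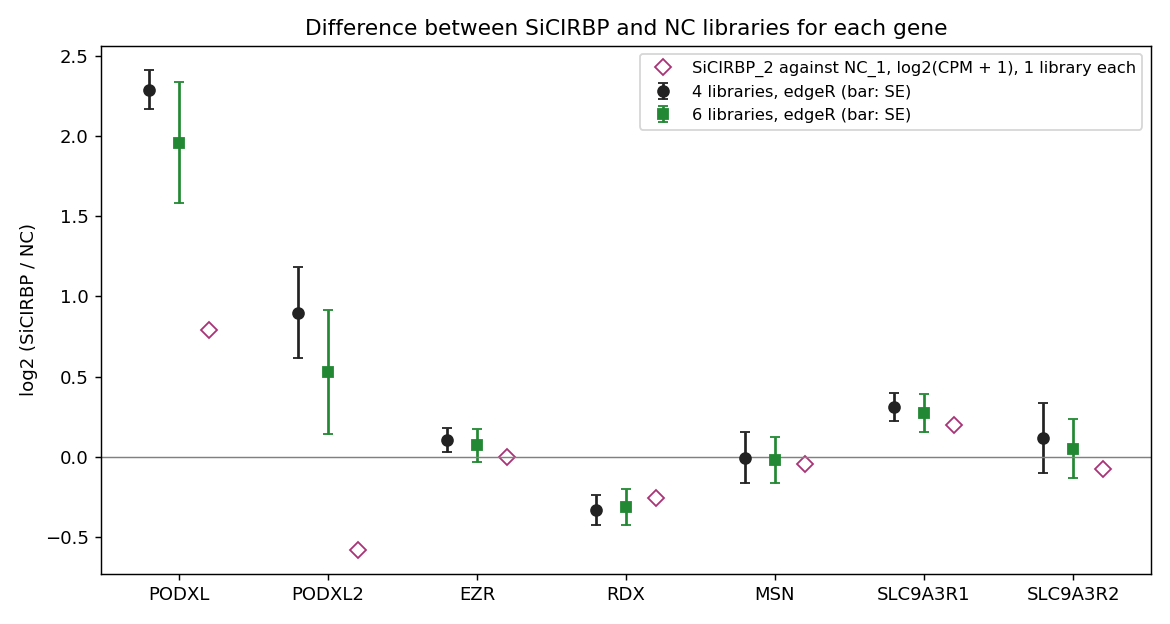
Log2 difference between SiCIRBP and NC (vertical axis) for each of the 7 genes; black circles are the edgeR fit over 4 libraries and green squares over 6, with bars of 1 SE, and open diamonds are SiCIRBP_2 against NC_1 on the log2(CPM + 1) scale, 1 library each. PODXL is at 2.29, 1.96 and 0.79, PODXL2 changes sign from 0.90 to -0.58, and RDX is negative in all 3.

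TPM values allow the genes to be set side by side. In NC_1, NC_2 and NC_3, PODXL was at 9.49, 11.1 and 9 TPM, the lowest of the 7 genes in each, and PODXL2 followed at 19.4 to 20.6 TPM. Above them came SLC9A3R1 at 38.6 to 44.4 TPM, RDX at 41.0 to 51.5 TPM and SLC9A3R2 at 51.4 to 57.9 TPM, and the neighbours in this stretch overlapped. MSN at 109 to 114 TPM and EZR at 215 to 226 TPM stood clear above, and these genes also ranked highest in every SiCIRBP library. In SiCIRBP_1, SiCIRBP_2 and SiCIRBP_3 PODXL was at 38.5, 13.2 and 46.4 TPM. It was above RDX alone in SiCIRBP_1 and above PODXL2 alone in SiCIRBP_2. In SiCIRBP_3 it was above RDX, PODXL2 and SLC9A3R2 (42.9 TPM).

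The summed TPM of EZR, RDX and MSN was 365, 391 and 389 in NC and 347, 299 and 394 in SiCIRBP. SiCIRBP_3 lay just above the NC range and the other SiCIRBP libraries below it. Relative to that sum, PODXL amounted to 2.60%, 2.82% and 2.31% in NC and to 11.1%, 4.40% and 11.8% in SiCIRBP, with no overlap. The summed NHERF transcripts stood at 102, 95.2 and 90 TPM in NC and at 114, 92.7 and 90.2 TPM in SiCIRBP, which overlapped. PODXL amounted to 9.28%, 11.6% and 10.0% of them in NC and to 33.9%, 14.2% and 51.5% in SiCIRBP. These shares contain the PODXL values that chose the gene and are a description. In every library the summed RNA of the NHERF scaffolds was therefore above that of PODXL, and the summed RNA of the ERM genes several times above it. This does not hold for each of these genes alone.

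Within the ERM genes, EZR made up 57.7% to 58.9% of the summed TPM in NC and 59.1% to 64.6% in SiCIRBP. RDX made up 11.2% to 13.2% in NC and 8.13% to 10.1% in SiCIRBP, again with no overlap, while MSN overlapped at 28.8% to 29.8% and 25.3% to 31.7%. The ratio of PODXL to PODXL2 in TPM was 0.461, 0.561 and 0.465 in NC and 0.849, 1.13 and 2.00 in SiCIRBP. It was thus higher in each SiCIRBP library, through higher PODXL in SiCIRBP_1 and SiCIRBP_3 and through lower PODXL2 as well in SiCIRBP_2. This ratio also contains the PODXL values that chose the gene and is a description.

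**Figure D3:**
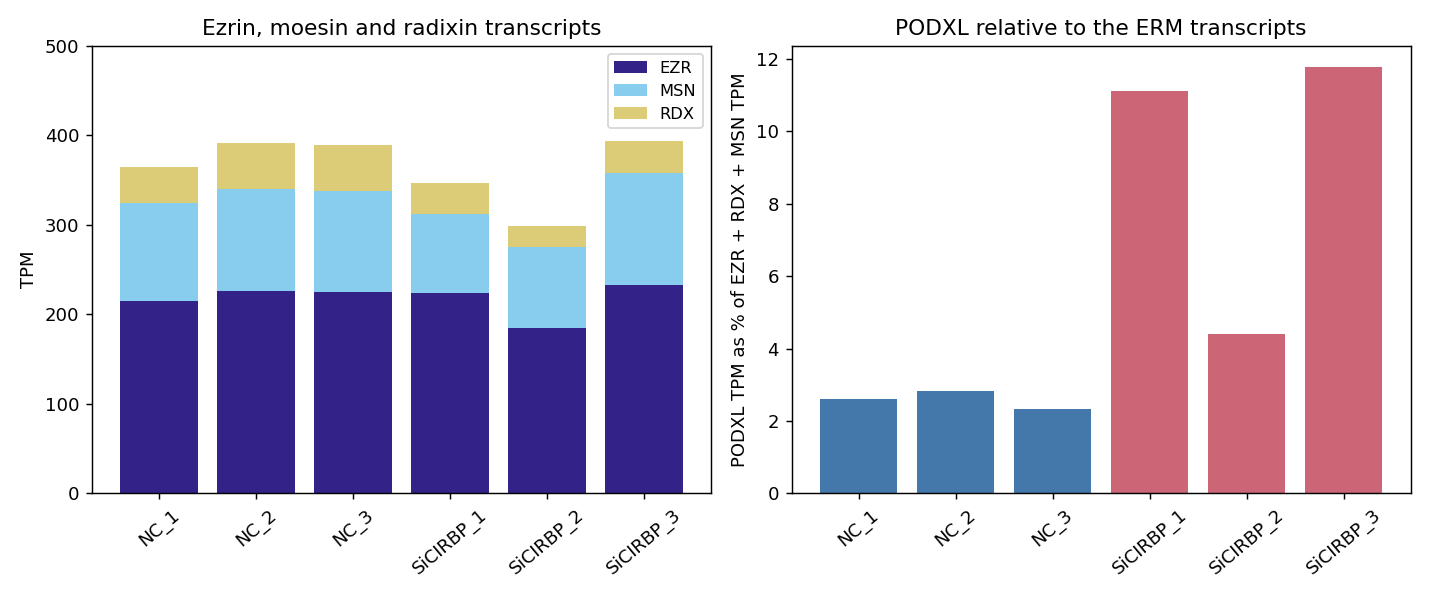
Left, TPM of EZR, MSN and RDX stacked for each library (vertical axis, TPM); right, PODXL TPM as a percentage of the summed TPM of the 3 ERM genes (blue, NC; red, SiCIRBP). The summed ERM transcripts run from 299 to 394 TPM, and the PODXL percentage from 2.31% to 2.82% in NC and from 4.40% to 11.8% in SiCIRBP.

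Estimated count and TPM together imply the transcript length that was assigned to a gene in each library, a quantity that the count test does not use. Relative to the NC mean, after scaling each library to the same median over genes, the implied length of PODXL was 0.977, 0.954 and 1.07 in NC_1 to NC_3 and 1.09, 1.05 and 1.10 in SiCIRBP_1 to SiCIRBP_3. SiCIRBP_2 lay below NC_3, so the groups overlapped, and the ratio of the group means was 1.08. RDX varied most, with 1.07, 0.948 and 0.983 in NC and 0.996, 1.29 and 1.09 in SiCIRBP, the highest being SiCIRBP_2. The highest library exceeded the lowest by 1.36-fold for RDX and 1.15-fold for PODXL, and by at most 1.07-fold for the other 5 genes. Over 11878 genes with at least 1 TPM in every library the median of that ratio was 1.12 and the 95th percentile was 1.66, so the 7 genes lay within the usual range. GENCODE 29 lists 24 transcripts for RDX, 8 for PODXL and 1 for PODXL2.

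**Figure D4:**
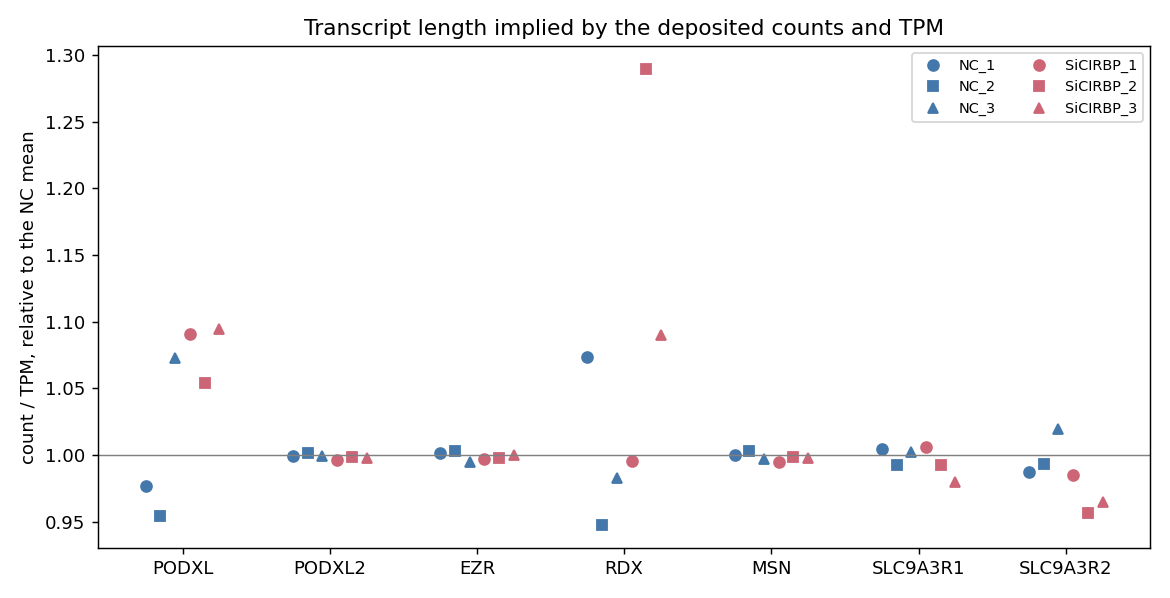
Estimated count divided by TPM, scaled per library and set relative to the NC mean (vertical axis, ratio), for each of the 7 genes; blue is NC, red SiCIRBP, and the marker shape gives the replicate number. RDX in SiCIRBP_2 stands at 1.29, PODXL runs from 0.954 to 1.10, and PODXL2, EZR and MSN stay close to 1.

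PODXL lies on chromosome 7 at 131500262 to 131558217, minus strand (GRCh38), and its principal transcript has 9 exons and 1674 coding bases. Its nearest neighbours that passed the filter were at the NC level. AC008264.2, 2568 bases away, differed by a log2 of 0.04 (edgeR adjusted p = 0.870) and CHCHD3, which encodes a mitochondrial inner membrane protein and lies 1226651 bases away, by 0.03 (adjusted p = 0.830). PODXL2 lies on chromosome 3 at 127629181 to 127672809 and EZR on chromosome 6 at 158765741 to 158819412. RDX spans 109864295 to 110296722 on chromosome 11, MSN 65588377 to 65741931 on chromosome X, SLC9A3R1 74748652 to 74769353 on chromosome 17, and SLC9A3R2 2025356 to 2039026 on chromosome 16.

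Overlapping genes and shared sequence were checked because reads can be assigned to either gene. The sources do not state strand-specific counting. EZR-AS1, which overlaps EZR by 1434 bases on the other strand, held 0 counts in every library. ZC3H12C, which overlaps RDX by 78481 bases on the other strand, stood at 4.86 to 8.71 CPM, and AC016888.1, antisense to SLC9A3R1, held at most 5.27 counts. Of the 31-base words in the MSN transcripts 6.99% also occur in the pseudogene MSNP1, and 4.52% and 2.67% of those of RDX in AC006210.2 and AC015689.2. All 3 pseudogenes held 0 counts in every library, so how reads over the shared words were assigned cannot be seen. The share of words found in transcripts of any other gene, read on the same strand only, was 0.406% for PODXL and 0% for PODXL2. In aligned coding bases EZR was 74.9% identical to MSN and 70.5% to RDX, RDX was 71.7% identical to MSN, and SLC9A3R1 was 67.0% identical to SLC9A3R2.

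The genes whose log2(CPM + 1) profile over the 6 libraries lay nearest to that of PODXL, after centring each on its mean, were H19, NDRG4, MROH6, LINC00565 and SPOCK2, at root mean square distances of 0.425, 0.434, 0.437, 0.445 and 0.452. Their Pearson correlations with PODXL over the 6 libraries ran from 0.928 to 0.966, and the libraries share their depth scaling and the stand-apart SiCIRBP_2. They were picked for likeness to PODXL among 15217 tested genes, so high correlations and a similar split between the groups follow from the choice. H19, an imprinted long non-coding RNA, was at 41.5, 56.5 and 74.2 CPM in NC and at 165.4, 60.2 and 169.8 CPM in SiCIRBP. Like PODXL it was high in SiCIRBP_1 and SiCIRBP_3 and much lower in SiCIRBP_2, but there it lay within the NC range. NDRG4, a gene expressed in heart and brain, was at 15.5, 16.1 and 13.5 CPM in NC and at 31.1, 25.0 and 58.2 CPM in SiCIRBP, with no overlap.

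The wider machinery around podocalyxin was described with lists of 106 genes in all, of which 78 passed the filter. Over the 4 libraries 7 were called higher (8.97%) and 13 lower (16.7%), with a median log2 difference of -0.07, beside 9.62% and 9.76% and a median of -0.002 over all tested genes. Over all 6 libraries edgeR called none of them, as for all genes, and DESeq2 called 2 higher and 0 lower.

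Genes for the apical transport of podocalyxin and for lumen formation held the most calls, 2 higher and 5 lower of 16 tested. These are 12.5% and 31.25%, beside 9.62% and 9.76% of all tested genes, and this list also had the most genes tested. RAB3IP, which encodes the exchange factor Rabin8 that activates RAB8 on vesicles, had the largest fall of the lists, from 14.4 and 15.4 CPM in NC_2 and NC_3 to 6.54 and 5.45 CPM in SiCIRBP_1 and SiCIRBP_3 (log2 -1.31, SE 0.16, adjusted p = 0.00688). NC_1 and SiCIRBP_2 were at 11.7 and 13.5 CPM, in the opposite order. SYTL2, a RAB27 effector, fell by a log2 of 0.79 (SE 0.16, adjusted p = 0.0216) and STX3, an apical SNARE, fell by 0.69 (SE 0.14, adjusted p = 0.0199). STX3 in SiCIRBP_2 was at 31.6 CPM, above every NC library. RAB8A and RAB35, GTPases of apical delivery of which the latter binds the podocalyxin tail, rose by 0.37 (SE 0.08, adjusted p = 0.0265) and 0.36 (SE 0.08, adjusted p = 0.0319), and both were higher in every SiCIRBP library.

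Among 13 tested relatives of the ERM proteins that carry a FERM domain, 2 rose and 2 fell. FRMD8 rose by 0.80 (SE 0.13, adjusted p = 0.0137), from 81.1 to 93.6 CPM in the NC libraries to 126.3, 145.1 and 163.8 CPM in the SiCIRBP libraries, and EPB41L1, a band 4.1 relative, rose by 0.62 (SE 0.12, adjusted p = 0.0201). EPB41L1 in SiCIRBP_2 was at 15.5 CPM, below the 18.1 to 20.7 CPM of the NC libraries. The integrin activators TLN1 and TLN2 were lower, the first at -0.27 (SE 0.07, adjusted p = 0.0440) and the other at -0.49 (SE 0.13, adjusted p = 0.0404). Of 7 kinases that phosphorylate ERM proteins 0 rose and 1 fell, which was PRKCA (protein kinase C alpha, -0.52, SE 0.08, adjusted p = 0.0101). It stood at 210 to 234 CPM in NC and at 165.1, 72.0 and 158.8 CPM in SiCIRBP.

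Of 6 other membrane proteins bound by ERM proteins 1 rose and 1 fell. The fall was that of ICAM1, an adhesion receptor for leukocytes that is also induced by interferon (-0.94, SE 0.19, adjusted p = 0.0229). ICAM1 was at 6.16 and 8.72 CPM in SiCIRBP_1 and SiCIRBP_3 but at 28.1 CPM in SiCIRBP_2, against 10.7 to 15.0 CPM in NC. Among 8 NHERF relatives and other proteins bound by NHERF 0 rose and 1 fell, the growth factor receptor gene PDGFRA (-0.38, SE 0.09, adjusted p = 0.0297), at 298 to 323 CPM in NC and 249.5, 149.3 and 227.1 CPM in SiCIRBP.

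Of 14 enzymes that build mucin-type O-glycans 1 rose and 1 fell. GALNT1, which starts such chains, rose by 0.44 (SE 0.11, adjusted p = 0.0342) and GCNT1, which branches them, fell by 0.95 (SE 0.19, adjusted p = 0.0205). In the pair of libraries outside the fit neither held that direction, with GALNT1 at 89.3 CPM in NC_1 and 77.0 in SiCIRBP_2 and GCNT1 at 7.29 and 7.47 CPM. Of 3 tested cell-surface sialomucins other than PODXL and PODXL2 1 rose, CD164 (endolyn, 0.59, SE 0.12, adjusted p = 0.0216), from 133 to 150 CPM in NC to 183.1, 223.2 and 230.2 CPM in SiCIRBP. Of 11 cortical actin and microvillus genes 0 rose and 2 fell, with the larger fall in the membrane-binding myosin MYO1E (-0.75, SE 0.10, adjusted p = 0.00828). MYO1E was at 71.3 CPM in SiCIRBP_2, above the 42.4 to 57.6 CPM of the NC libraries.

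**Figure D5:**
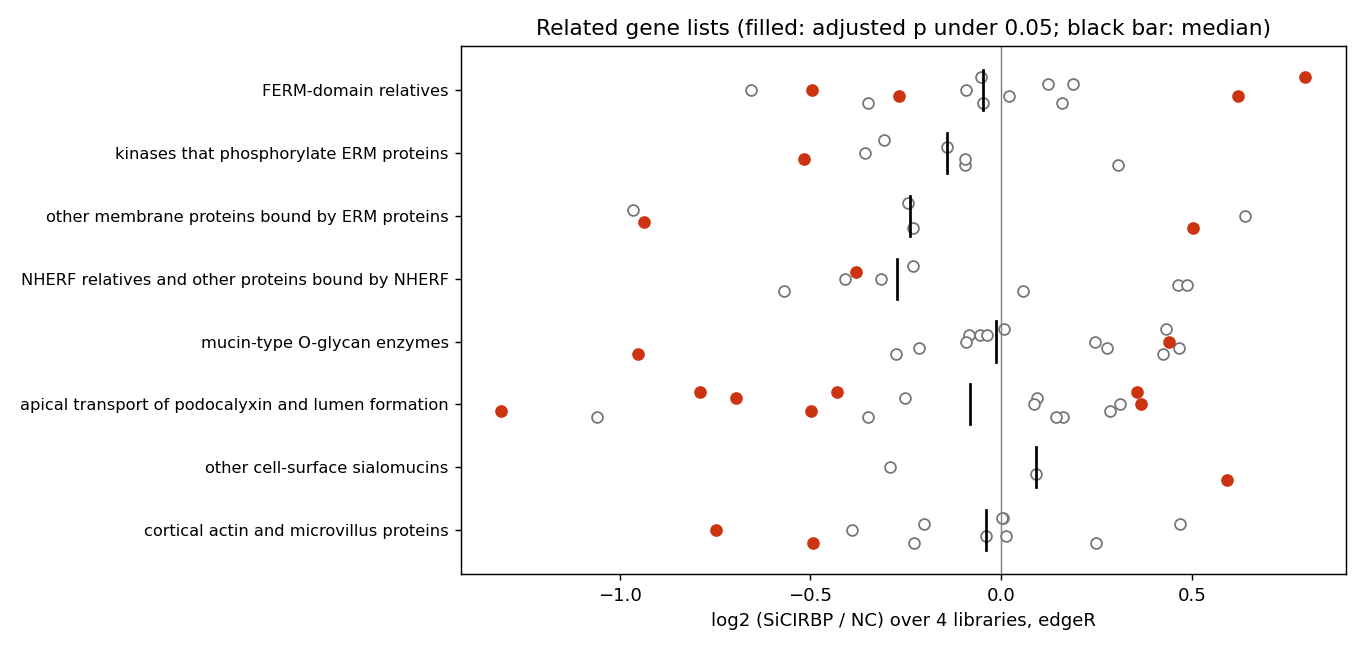
Log2 difference between SiCIRBP and NC over 4 libraries (horizontal axis, edgeR) for each tested gene of the 8 lists; filled points have an adjusted p under 0.05, open points do not, vertical offsets only separate points, and black bars are medians. Medians lie between -0.27 and 0.09, and RAB3IP at -1.31 is the farthest point to the left.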

How the data were processed

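RNA from the 6 libraries was made into libraries with Illumina protocols, and the reads were processed with fastp, HISAT and RSEM on hg38 per the submitters' processing notes; versions and annotation were not given in the sources used here. The authors deposited an estimated count (RSEM expected count) and a TPM value for each gene and library. The authors also deposited a ratio (fold change), log2 fold changes and p-values of their own comparisons, which were not used. Groups and replicate numbers come from the labels.

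Estimated counts were rounded to whole numbers (12.1% to 13.2% of the values in a library were not whole). The test was that of edgeR 4.0.16 under R 4.3.3 (TMM, filterByExpr, glmQLFit, glmQLFTest), with Benjamini-Hochberg adjustment over all tested genes. The libraries NC_2, NC_3, SiCIRBP_1 and SiCIRBP_3 gave the main values, as in the study, and all 6 were fitted beside them. DESeq2 1.42.0, RLE size factors, other filters, a replicate block and leaving out each library were alternatives. A standard error is the log2 difference divided by the root of the F statistic. The fits were tested on simulated data. TPM values were compared as deposited.

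Positions on GRCh38 came from GENCODE 29, in which 58611 of the 58884 identifiers had an entry, and so did coding sequence and the 31-base words of the annotated transcripts. The genes and lists were chosen with earlier results of these data known. Named are the 7 genes, CIRBP, the next rise by p, up to 3 rises and 3 falls of each list by size among those with an adjusted p under 0.05, the neighbours of PODXL, the 5 nearest profiles, and genes that overlap the 7 or share sequence with them. A few genes that this rule would name are not reported here.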

Additional observations from a re-analysis of the deposited data

Results flagged for a closer look

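PODXL in SiCIRBP_2 stood at 61.2 CPM, above the 34.9 to 39.6 CPM of the NC libraries and below the 165.7 and 199.2 CPM of the other SiCIRBP libraries. It is listed here because SiCIRBP_2 was used neither in the main fit nor in the choice of PODXL. NC_2 and NC_3, which it is set against, were used in both, and SiCIRBP_2 stood apart from the other libraries. No test is possible with 1 library.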

How the results depend on the processing

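The main limits are 2 libraries a group in the main fit, a SiCIRBP_2 library that stands apart, and expected counts without stated strand. For PODXL the log2 difference of 2.29 was 1.96 over all 6 libraries, 1.81 there with the replicate block, and 1.96 with DESeq2 over 6; leaving out 1 library gave 2.15 to 2.41 over 4 libraries and 1.64 to 2.32 over 6. PODXL2 passed the test with no filter (0.88, adjusted p = 1.55e-09 by edgeR, within a range of 3.52e-46 to 0.897 over its alternatives), and leaving out 1 library gave 0.32 to 1.30 over 4 libraries and -0.05 to 0.86 over 6, passing over 4 without SiCIRBP_1 or SiCIRBP_3. In such fits the lone library of a group is assumed to vary like the others. RDX no longer passed over 6 libraries (-0.31), with the replicate block (-0.31) or with DESeq2 over 6 (-0.30), and leaving out 1 library gave -0.43 to -0.26 over 4 libraries and -0.36 to -0.27 over 6. SLC9A3R1 passed with at least 10 counts in every library (0.31) and ran from 0.27 to 0.35 over 4 libraries and from 0.21 to 0.34 over 6 when 1 was left out. Over 4 libraries MSN ran from -0.29 to 0.22, reversed without SiCIRBP_1, and SLC9A3R2 from -0.30 to 0.43, also reversed without SiCIRBP_1. Without SiCIRBP_1 or without SiCIRBP_3, MSN, SLC9A3R1 and SLC9A3R2 also passed the test, in fits whose only SiCIRBP library was the other one. Same-numbered libraries did not deviate together (correlations of -0.118, 0.006 and -0.026 for numbers 1, 2 and 3), and 1 of 6 libraries correlated best with its own number in the other group, so the numbers were not taken to pair them. Against the fit of 6 libraries without it, the replicate block changed no call of the 7 genes.

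Genes called higher numbered 1484, but 0 over 6 libraries, 1 with the replicate block, 747 with DESeq2 over 6, and 25 to 3379 with 1 library left out. Genes called lower numbered 1505, but 0, 0 and 775 under the same settings, 2492 with no filter, and 39 to 3669 with 1 library left out. Of the lists, the 7 called higher became 0, 0 and 2, 12 with no filter and 0 to 21 with 1 library left out, and the 13 called lower became 0, 0 and 0, 20 with no filter and 0 to 35. SiCIRBP_2 against NC_1 in TPM + 1 gave 0.43 for PODXL, -0.22 for EZR, -0.73 for RDX and -0.0061 for SLC9A3R1, a reversal. Implied length with no rescaling gave log2 ratios of 0.22 for PODXL, 0.10 for PODXL2, EZR, MSN and SLC9A3R1, and 0.060 for SLC9A3R2, all but the first reversed from values near 0, because leaving out the rescaling adds the same amount to every gene. The cause of the other shifts was not tested.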
